A study of Mus musculus with 6 samples.

Results

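Nuclear hormone receptors are transcription factors that bind DNA through zinc fingers, many of them switched by a small lipid-soluble ligand such as a steroid, a retinoid, an oxysterol or thyroid hormone. Several bind as pairs with a retinoid X receptor (RXR), and corepressors and coactivators decide whether a bound receptor silences or drives its targets. In macrophages the liver X receptors (LXR) and the peroxisome proliferator-activated receptors (PPAR) are known for control of cholesterol efflux and lipid use. PPAR gamma is also known to favour osteoclast formation from mouse bone marrow precursors.

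The receptors described here are a fixed list of 39 mouse nuclear receptor genes, which does not cover the whole superfamily. Of these, 36 had at least 1 count among the 26106 genes of the deposited table, and Rorb, Esr2 and Pgr were not analysed here. The filter on low counts left 29 receptors among 15590 tested genes.

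The libraries were mRNA sequencing of bone marrow-derived macrophages from wild-type male C57BL/6 mice aged 6 weeks, the precursors from which osteoclasts form. All cells were kept for 2 days in α-MEM with 10% FBS, M-CSF at 30 ng/mL and RANKL at 100 ng/mL, the cytokine pair that drives osteoclast formation. Ctrl cells (n = 3) received no further named addition, and no vehicle is named. ZM cells (n = 3) also received 10 μM ZM, named ZM-306416 in the series title, a compound known to inhibit VEGF receptor kinases. Whether replicate libraries stem from different mice or cultures is not labelled, so the p-values here reflect library-to-library spread that could be purely technical. All libraries carry a common batch label.

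Total counts were 45512004 to 54256377 per library. The 10 macrophage markers, Lyz2 the most abundant, summed to between 10300 and 11700 CPM (counts relative to the library total, adjusted for composition) in Ctrl. In ZM they summed to between 19000 and 39200 CPM, with 7 of 10 risen, against 5.54% of all tested genes. The 10 osteoclast markers, Mmp9 the most abundant, summed to between 4980 and 5290 CPM in Ctrl and to between 558 and 971 CPM in ZM. Of these 10 of 10 fell, against 5.44% of all tested genes. ZM replicate 3 stood apart, with the highest macrophage sum, the lowest osteoclast sum and the lowest composition factor (0.919 against 0.995 to 1.03). Markers of other cell types were low: summed levels were at most 3.67 CPM for neutrophils, 1.74 CPM for B cells, 3.32 CPM for mast cells and 4.31 CPM for erythroid cells in any library, and 0.556 CPM for adipocytes. In these lists 3 of 10, 4 of 8, 5 of 8, 1 of 8 and 2 of 8 markers had no count. Neutrophil sums were 2.44 to 3.67 CPM in Ctrl and 1.97 to 2.19 CPM in ZM. Mast cell sums were 2.14 to 3.32 CPM in Ctrl and 0.297 to 1.07 CPM in ZM. Erythroid sums were 3.82 to 4.31 CPM in Ctrl and 0.784 to 1.3 CPM in ZM. B cell sums were higher with ZM, at 0.364 to 0.597 CPM in Ctrl and 0.707 to 1.74 CPM in ZM. Adipocyte sums overlapped between groups. Dendritic cell markers (4.03 CPM at most) and T and NK cell markers (9 CPM at most) were also low. Megakaryocyte markers, Vwf the most abundant, summed to 51 to 59.8 CPM in Ctrl and 47.6 to 70.5 CPM in ZM. Of 4 tested megakaryocyte markers 2 rose and 1 fell, against 5.54% and 5.44% of all tested genes. Stromal markers, Runx2 the most abundant, summed to 19.5 to 21.3 CPM in Ctrl and 14.7 to 17.5 CPM in ZM. Endothelial markers summed to 41.7 to 52.3 CPM in Ctrl and 7.31 to 21.6 CPM in ZM, and the most abundant was Kdr, a VEGF receptor gene. The part of these marker differences in the receptor results was not tested, and in bulk RNA fewer cells of a type and less RNA per cell cannot be told apart.

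Compared per kilobase of gene length in Ctrl, the LXR beta gene Nr1h2 was highest at 24.8 ± 1.47 CPM per kilobase (SD, n = 3). The RXR beta gene Rxrb came next at 16.05 ± 0.369 CPM per kilobase, and both were separated from their neighbours by more than the summed SDs. The glucocorticoid receptor gene Nr3c1, the REV-ERB beta gene Nr1d2 and the LXR alpha gene Nr1h3 formed a group from 11.84 to 11.29 CPM per kilobase that did not differ beyond their spread. Rxra (5.42) and Pparg (5.37) did not differ from each other either, with the Rxra length of 6303 bases recovered from the deposited FPKM values. GENCODE M21 annotates 5462 exonic bases for Rxra, and its level with that length was not computed. Rara, Nr2c1 and Rarg lay between 4.455 and 3.87 CPM per kilobase, Thra, Nr2f6 and Nr1d1 between 3.295 and 3.07, and Ppard, Rora and Nr2c2 between 2.411 and 2.312. The other 13 tested receptors were at or below 0.565 CPM per kilobase, Nr4a1 the highest among them. With ZM, Nr1h3 moved from the fifth to the second place in this order, behind Nr1h2. At 17.95 ± 4.07 CPM per kilobase in ZM it was not separated from Rxrb (15.87 ± 2.65) by more than the summed SDs.

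**Figure D1:**
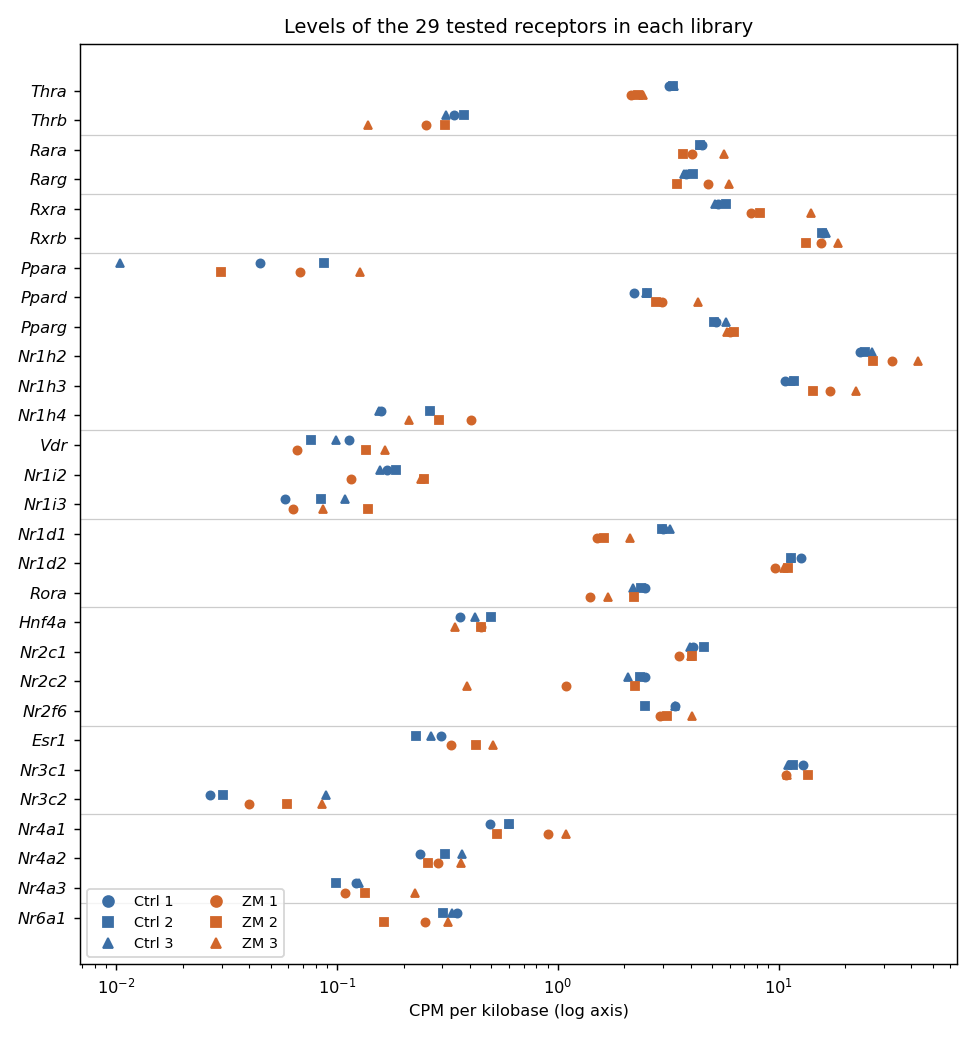
Level of each tested receptor in each library, in CPM per kilobase on a log axis, with Ctrl in blue and ZM in orange and rows grouped by receptor class. Nr1h2 and Rxrb are highest in Ctrl, and the ZM points of Nr2c2 and Rxra are spread wider than their Ctrl points.

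ZM against Ctrl asked which receptor transcripts differed when the inhibitor was present during osteoclast induction. The LXR alpha gene Nr1h3 rose 1.59-fold, while the thyroid hormone receptor alpha gene Thra and the REV-ERB alpha gene Nr1d1 fell 1.43-fold and 1.76-fold. These 3 were 10.3% of the 29 tested receptors, close to the 11.0% of all tested genes that were called (5.54% higher and 5.44% lower). The groups did not overlap for 6 receptors higher and 4 lower with ZM, against 21.5% and 21.4% of all tested genes in these directions. The median log2 fold change was 0.17 over the tested receptors and 0.003 over all tested genes. The remaining 26 receptors missed the threshold, which does not show that their levels were alike.

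The 3 calls held without ZM replicate 2 or 3 but not without any other library. Without any one Ctrl library, or without ZM replicate 1, no receptor was called by edgeR's quasi-likelihood test, and the number of all genes called dropped from 1711 to between 148 and 669. In those settings 4 to 6 receptors still had an unadjusted p under 0.05. Without ZM replicate 3 the same 3 receptors were called and Rxra with them.

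**Figure D2:**
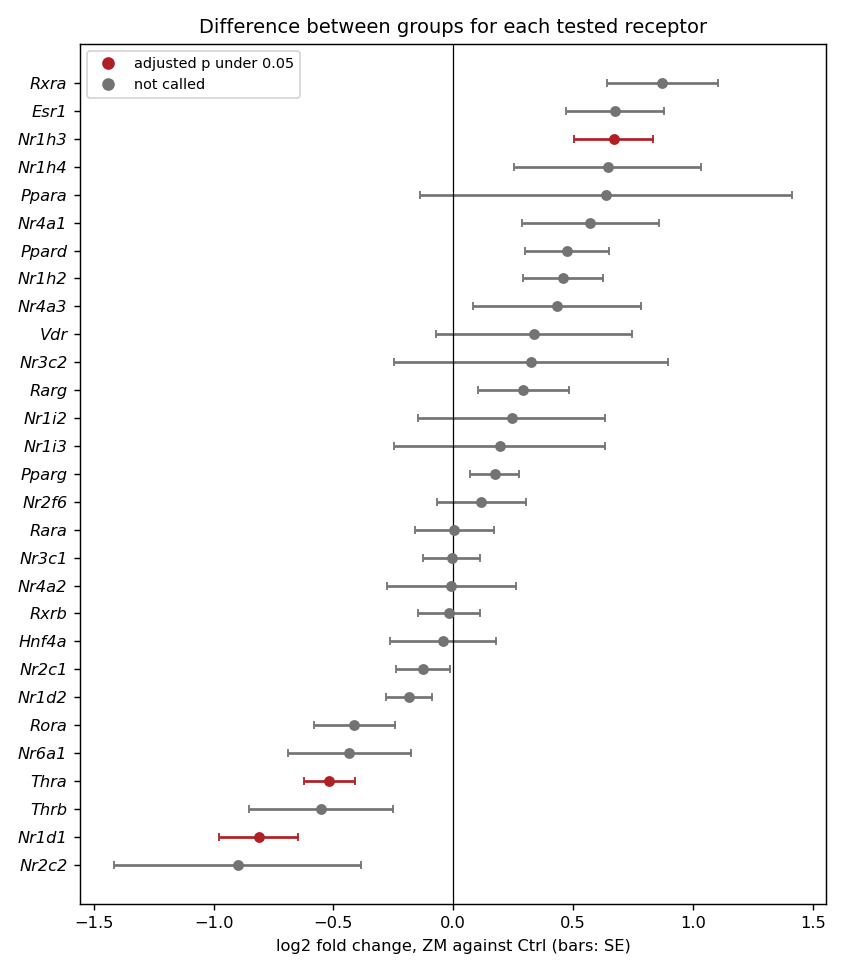
Log2 fold change of ZM against Ctrl for each of the 29 tested receptors, ordered by size, with bars of 1 standard error. Nr1h3 (0.67), Thra (-0.52) and Nr1d1 (-0.81), in red, passed the threshold of 0.05 on adjusted p; Rxra (0.87) and Nr2c2 (-0.90) are farther from 0 with larger errors.

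Among the lipid sensors, Nr1h3 encodes LXR alpha, which binds oxysterols and drives cholesterol efflux genes in macrophages. It lies on chromosome 2 of GRCm38, reverse strand, from 91184061 to 91202834 (ENSMUSG00000002108). Nr1h3 was at 26.95, 29.58 and 28.63 CPM in Ctrl replicates 1, 2 and 3, and at 43.17, 36.04 and 56.25 CPM in ZM replicates 1, 2 and 3. Every ZM library was above every Ctrl library, and ZM replicate 3 was highest. The change was 28.4 ± 1.33 to 45.2 ± 10.2 CPM (SD, n = 3 per group; log2 fold 0.67, SE 0.16, adjusted p = 0.0425). It was 0.48 on the log2 scale without ZM replicate 3 (adjusted p = 0.00967). The call was lost without a Ctrl library (adjusted p from 0.146 to 0.177) and without ZM replicate 1 (0.0997).

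Nr1h2, the LXR beta gene, had 78.72, 82.45 and 88.49 CPM across the Ctrl libraries and 110.1, 89.62 and 143.1 CPM across the ZM libraries. The groups did not overlap, though ZM replicate 2 lay just above the highest Ctrl library, and the difference was not called (log2 fold 0.46, SE 0.17, adjusted p = 0.113). Ppard, the PPAR delta gene, also did not overlap between groups, with 16.6, 18.97 and 18.76 CPM in Ctrl and 22.3, 21.03 and 32.29 CPM in ZM, a log2 fold of 0.48 with an SE of 0.18 (adjusted p = 0.115). Without ZM replicate 2 both were called, at log2 folds of 0.61 for Nr1h2 and 0.59 for Ppard (adjusted p = 0.0163 and 0.0378). Without ZM replicate 3 neither was, at 0.27 and 0.26 (adjusted p = 0.103 and 0.0939).

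Pparg, which encodes the fatty acid receptor PPAR gamma, had 15.43, 15.12 and 17.03 CPM across the Ctrl libraries and 17.77, 18.53 and 17.31 CPM across the ZM libraries. The libraries of the 2 groups lay close together without overlapping, and the difference was not called (log2 fold 0.17, SE 0.10, adjusted p = 0.281). Nr1h4, the bile acid receptor gene, and Ppara, the PPAR alpha gene, stayed under 1 CPM in every library. Their log2 folds of 0.64 each had standard errors of 0.39 and 0.78.

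RXR alpha and RXR beta are the shared partners of the LXR, PPAR, retinoic acid, thyroid hormone and vitamin D receptors. Rxra (chromosome 2, forward strand, 27676440 to 27762957) had 33.49, 36.37 and 32.57 CPM across the Ctrl libraries and 47.06, 51.94 and 88.58 CPM across the ZM libraries. All ZM libraries were above all Ctrl libraries, and ZM replicate 3 stood far above the other two. The log2 fold of 0.87 (SE 0.23) was the highest among the tested receptors but just missed the threshold (adjusted p = 0.0528). Without ZM replicate 3 the log2 fold was 0.54 and the difference was called (adjusted p = 0.00261). DESeq2 also called it (adjusted p = 0.00518), and without a Ctrl library the adjusted p was 0.157 to 0.187.

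Rxrb had 63.46, 62.45 and 65.34 CPM across the Ctrl libraries and 62.13, 53.01 and 73.98 CPM across the ZM libraries, so the ZM libraries lay on both sides of Ctrl (log2 fold -0.02, SE 0.13, adjusted p = 0.940). Rxrg, the RXR gamma gene, had 2 counts in all and was not tested. Within the RXR genes, Rxra made up 25.0%, 26.9% and 23.9% of the summed level per kilobase in Ctrl and 32.3%, 38.2% and 43.0% in ZM. The Rxra share was thus higher in each ZM library, by 12.6 percentage points between the means of 25.2% ± 1.49 and 37.8% ± 5.36 (SD, n = 3). Such a share does not depend on library scaling, but it does depend on the gene lengths used.

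The test of this share was an exact two-sided permutation test, for which 3 libraries against 3 allow no p under 0.1. Rxra reached that smallest value (exact permutation p = 0.1, and 0.2 after Benjamini-Hochberg adjustment over 8 receptor subfamilies). The share of Nr1h3 among the LXR genes was 31.3% ± 1.11 in Ctrl and 34.5% ± 0.316 in ZM, also without overlap (exact permutation p = 0.1, adjusted 0.2). The difference between the means was 3.26 percentage points. The share of Rarg against Rara was 46.5% ± 1.33 and 51.3% ± 2.76, and that of Nr1d1 among the REV-ERB genes was 20.6% ± 1.48 and 14.3% ± 2.13 (exact permutation p = 0.1 and adjusted 0.2 for each). For Ppard, Nr2c2 and Nr4a1 the exact permutation p was 0.3, and for Thra against Thrb it was 1, at 90.6% in Ctrl and 90.8% in ZM. These 8 shares were chosen after the levels had been seen.

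**Figure D3:**
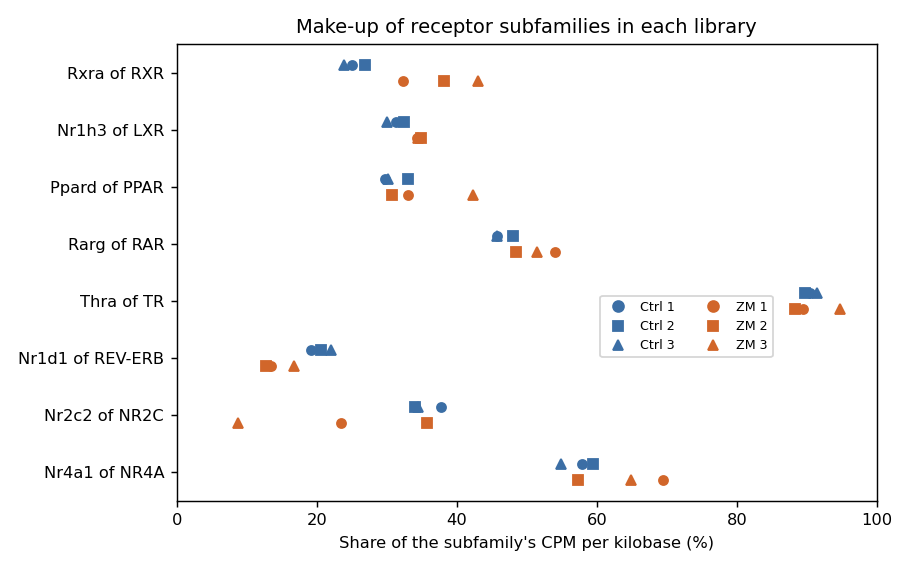
Share of the named gene in the summed CPM per kilobase of its subfamily, in percent, for each library, with Ctrl in blue and ZM in orange. The Rxra share is 23.9% to 26.9% in Ctrl and 32.3% to 43.0% in ZM, and the Nr1d1 share is lower in each ZM library.

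Many of these receptors recognise the element AGGTCA on either strand, alone or as a pair. The promoters of 2 called genes and of Rxra are shown because these genes lead the results. Each holds the 250 bases before a RefSeq start on GRCm38.p6, 5′ to 3′ in the sense of the gene, in lower case with any AGGTCA or its reverse complement TGACCT in capitals. The table used held no entry for Thra. The first line is Nr1h3 at chr2:91195117-91195366, reverse strand; the next Nr1d1 at chr11:98775378-98775627, reverse strand; and the last Rxra at chr2:27709042-27709291, forward strand, the second of the 2 Rxra starts.
Nr1h3: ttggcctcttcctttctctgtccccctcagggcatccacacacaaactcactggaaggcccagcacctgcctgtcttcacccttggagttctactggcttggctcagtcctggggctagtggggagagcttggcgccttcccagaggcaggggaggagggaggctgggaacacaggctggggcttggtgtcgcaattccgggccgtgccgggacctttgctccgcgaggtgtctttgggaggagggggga
Nr1d1: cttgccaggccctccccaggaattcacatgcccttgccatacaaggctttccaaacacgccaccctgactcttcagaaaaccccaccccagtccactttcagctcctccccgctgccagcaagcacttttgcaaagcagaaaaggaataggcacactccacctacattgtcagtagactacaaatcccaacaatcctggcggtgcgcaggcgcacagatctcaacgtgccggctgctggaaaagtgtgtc
Rxra: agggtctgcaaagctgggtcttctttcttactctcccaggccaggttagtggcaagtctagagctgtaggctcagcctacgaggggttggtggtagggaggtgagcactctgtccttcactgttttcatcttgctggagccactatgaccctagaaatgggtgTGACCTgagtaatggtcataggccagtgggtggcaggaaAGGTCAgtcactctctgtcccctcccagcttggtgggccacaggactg
The Rxra window holds 2 matches, 1 in antisense from 87 to 82 bases and 1 in sense from 48 to 43 bases before the start, and the other windows shown hold none. The window before the first Rxra start and that before the second Nr1h3 start, not shown, also hold none, so the Rxra window shown is the one with matches. Of 32851 windows of this length, 14.0% hold the element, as do 17.2% of the 58 windows of the listed receptors. Searches on both strands for the E-box CACGTG, the cyclic AMP element TGACGTCA and the D-box TTATGNAA found none in these 3 windows. A match is a description of letters, and its absence says only that these letters are not in the window.

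Thyroid hormone receptor alpha, encoded by Thra, is the main thyroid hormone receptor of bone. Thra (ENSMUSG00000058756) lies on chromosome 11, forward strand, from 98740638 to 98769006. It had 14.78, 15.28 and 15.54 CPM across the Ctrl libraries and 9.935, 10.7 and 11.25 CPM across the ZM libraries. The ZM libraries were all lower and close to each other, unlike those of Nr1h3 and Rxra. The drop was from 15.2 ± 0.384 to 10.63 ± 0.660 CPM, a log2 fold of -0.52 with an SE of 0.11 (adjusted p = 0.0287). Its adjusted p was 0.0837 without ZM replicate 1 and 0.132 to 0.145 without a Ctrl library.

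Thrb, the thyroid hormone receptor beta gene, averaged 2.53 ± 0.231 CPM over Ctrl and 1.72 ± 0.642 CPM over ZM, where replicate 3 was lowest at 1.017 CPM. The groups did not overlap, and the log2 fold of -0.55 (SE 0.30) was not called (adjusted p = 0.240). Of 14 genes tested in the list of sterol, steroid, vitamin D and thyroid hormone handling 1 was called, against 11.0% of all tested genes. That gene was Dio2, which encodes the deiodinase that converts thyroxine into the active hormone. It had 91.49, 81.54 and 91.43 CPM across the Ctrl libraries and 15.96, 19.75 and 10.4 CPM across the ZM libraries. This 5.73-fold drop (log2 fold -2.52, SE 0.22, adjusted p = 0.00235) was called in all 15 alternative settings, and ZM replicate 3 was lowest.

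REV-ERB alpha, the product of Nr1d1, is a haem-binding repressor of the circadian clock. Nr1d1 (ENSMUSG00000020889) lies on the reverse strand of chromosome 11 from 98767932 to 98775333, tail to tail with Thra. Nr1d1 had 9.234, 9.132 and 9.969 CPM across the Ctrl libraries and 4.615, 4.985 and 6.547 CPM across the ZM libraries. The groups were well separated, and ZM replicate 3 was nearest to Ctrl. The log2 fold was -0.81 (SE 0.16, adjusted p = 0.0263), and -0.97 without ZM replicate 3 (adjusted p = 7.67e-04). The call was lost without a Ctrl library (adjusted p from 0.109 to 0.131) and without ZM replicate 1 (0.0791).

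Exons of Thra and Nr1d1 overlap by 263 bases on opposite strands, which is 5.70% of the exonic bases of Thra and 8.55% of those of Nr1d1. The strand setting of the counting is not given in the sources used here, so reads in the overlap cannot be assigned to 1 of these genes with certainty. The genes had 3876 and 2216 counts in all.

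The other clock receptors were closer to Ctrl. Nr1d2, which encodes REV-ERB beta, had 68.5, 61.84 and 61.68 CPM across the Ctrl libraries and 52.1, 59.81 and 57.14 CPM across the ZM libraries. Its ZM libraries were just below its Ctrl libraries, and the difference was not called (log2 fold -0.18, SE 0.10, adjusted p = 0.229). Rora, the gene of ROR alpha, which activates the elements that REV-ERB proteins repress, had 32.48, 31.09 and 28.57 CPM across the Ctrl libraries and 18.2, 28.82 and 22.16 CPM across the ZM libraries. ZM replicate 2 lay within the Ctrl range, and the log2 fold of -0.41 (SE 0.17) was not called (adjusted p = 0.143; 0.0159 without ZM replicate 2).

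**Figure D4:**
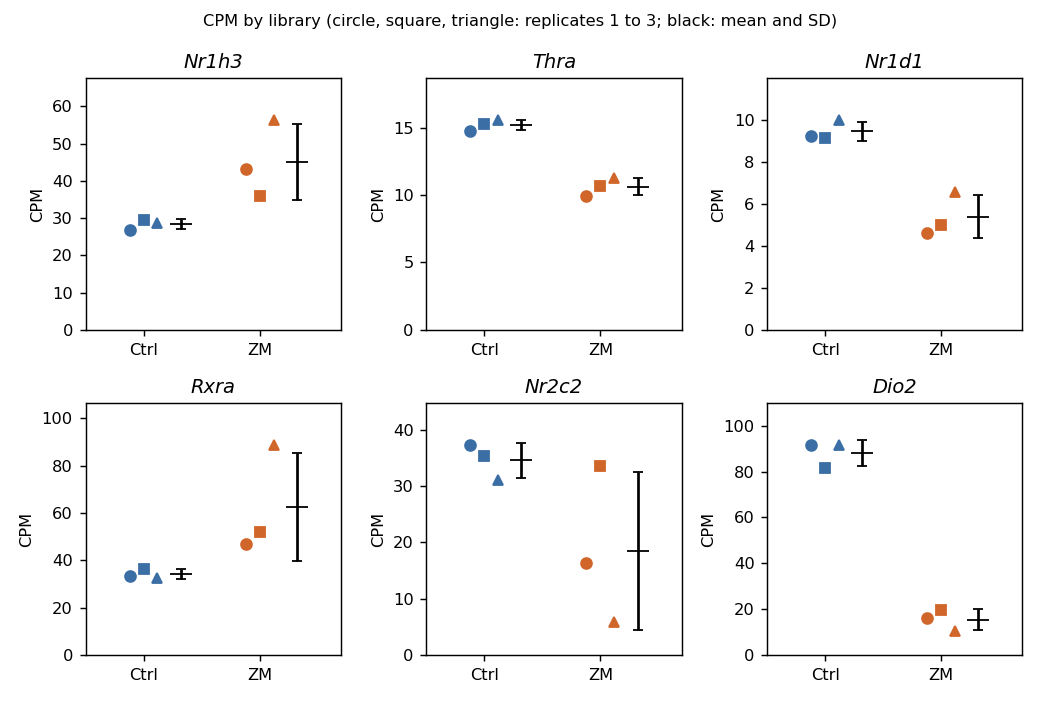
CPM by library for 5 receptors and the deiodinase gene Dio2, on axes that start at 0, with replicates 1, 2 and 3 as circle, square and triangle and the group mean and SD in black. The groups do not overlap for Nr1h3, Thra, Nr1d1, Rxra and Dio2, and the ZM libraries of Nr2c2 run from 5.76 to 33.5 CPM.

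Nr2c2 encodes TR4, an orphan receptor that competes for elements of other receptors. It had 37.22, 35.35 and 31.04 CPM across the Ctrl libraries and 16.24, 33.47 and 5.763 CPM across the ZM libraries. ZM replicate 2 lay within the Ctrl range while replicates 1 and 3 were below it, and the log2 fold of -0.90 had an SE of 0.52 and was not called (adjusted p = 0.261). It ran from -1.64 without ZM replicate 2 (adjusted p = 0.0237) to -0.48 without ZM replicate 3 (0.215). Nr2c2 is the longest tested receptor at 14935 bases, and length moved with these libraries. The 1229 tested genes over 10000 bases had median log2 differences from the Ctrl mean of -0.30, -0.03 and -0.47 in ZM replicates 1, 2 and 3, against 0.07, 0.01 and 0.07 for the 6304 genes of 2000 to 5000 bases. With this length trend removed, Nr2c2 was at a log2 fold of -0.64 (adjusted p = 0.298) and Rora, at 13071 bases, at -0.09 (0.680). The part of gene length in the other results was not tested beyond this correction.

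Exons of Nr2c2 also overlap those of Mrps25 by 4590 bases on the opposite strand, and Mrps25 was not called, with means of 41.5 ± 2.03 CPM over Ctrl and 35.5 ± 3.87 CPM over ZM. Nr2c1, the gene of the related receptor TR2, had 18.9, 21.15 and 18.21 CPM across the Ctrl libraries and 16.33, 18.62 and 18.47 CPM across the ZM libraries. These groups overlapped (log2 fold -0.12, SE 0.11, adjusted p = 0.459). Nr2f6, the EAR2 gene, was at 9.21 ± 1.55 and 9.999 ± 1.83 CPM and shares 1622 exonic bases with Ocel1. Hnf4a was at 2.05 ± 0.331 and 1.99 ± 0.295 CPM, and Nr2f1 and Nr2f2, the COUP-TF genes, had 6 and 24 counts in all and were not tested.

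Retinoic acid receptors were present as the alpha and gamma forms. Rara had 19.73, 19.34 and 19.26 CPM across the Ctrl libraries and 17.76, 16.1 and 24.64 CPM across the ZM libraries, so ZM replicate 3 was above Ctrl and the other ZM libraries below it (log2 fold 0.003, SE 0.16, adjusted p = 0.990). Rarg had 16.2, 17.44 and 15.84 CPM across the Ctrl libraries and 20.37, 14.8 and 25.42 CPM across the ZM libraries. ZM replicates 1 and 3 were above Ctrl and replicate 2 below it (log2 fold 0.29, SE 0.19, adjusted p = 0.315). The log2 fold was 0.47 and called without ZM replicate 2 (adjusted p = 0.0329), and 0.095 without ZM replicate 3 (0.677). Rarb, a retinoic acid target itself, had 28 counts in all and was not tested.

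Among steroid receptors, Nr3c1 was the main transcript. It had 98.92, 89.44 and 84.57 CPM across the Ctrl libraries and 83.48, 104.2 and 83.98 CPM across the ZM libraries. The groups overlapped, and the log2 fold was -0.01 with an SE of 0.12 (adjusted p = 0.974). Esr1, the estrogen receptor alpha gene, had 4.049, 3.103 and 3.621 CPM across the Ctrl libraries and 4.467, 5.807 and 6.928 CPM across the ZM libraries. Each ZM library was above Ctrl, with a log2 fold of 0.67 (SE 0.21) that was not called (adjusted p = 0.0758). Nr3c2, the mineralocorticoid receptor gene, stayed under 0.6 CPM in every library.

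The remaining classes were low. Nr4a1, an immediate early gene that encodes NUR77, averaged 1.98 ± 0.214 CPM over Ctrl and 2.95 ± 1.01 CPM over ZM (log2 fold 0.57, SE 0.29, adjusted p = 0.207). Nr4a2 and Nr4a3 were at 1.24 ± 0.265 and 0.691 ± 0.0895 CPM in Ctrl, with overlapping groups. The vitamin D receptor gene Vdr averaged 0.544 ± 0.106 CPM over Ctrl and 0.689 ± 0.288 CPM over ZM. The xenobiotic receptor genes Nr1i2 and Nr1i3 were under 0.7 CPM in every library, and 74.9% of the exonic bases of Nr1i3 are shared with Tomm40l. Nr6a1 was at 3.55 ± 0.258 and 2.63 ± 0.840 CPM, and Nr5a2, Esrrb and Esrrg had 25, 2 and 2 counts in all and were not tested.

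Of 24 tested coactivators and corepressors 1 was called, against 11.0% of all tested genes. That gene was Ppargc1b, a coactivator of PPAR and estrogen-related receptors that drives mitochondrial biogenesis. It fell from 28.2, 24.57 and 27.26 CPM in Ctrl to 7.451, 8.634 and 5.699 CPM in ZM, well below Ctrl in each ZM library. The log2 fold was -1.88 with an SE of 0.17 (adjusted p = 0.00235). The corepressor gene Ncor1 was at 190.9 ± 9.19 and 145.3 ± 41.9 CPM (adjusted p = 0.201), and the corepressor gene Nrip1 at 31.3 ± 2.88 and 26.5 ± 6.54 CPM (0.375). Groups overlapped for both genes. Without ZM replicate 2 both were called, lower with ZM (adjusted p = 0.0127 for Ncor1 and 0.0256 for Nrip1). With the length trend removed their log2 folds went from -0.39 to -0.092 for Ncor1 and from -0.24 to 0.050 for Nrip1. The median log2 fold of the coregulators, without that correction, was -0.226, against 0.003 over all tested genes.

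Among 12 receptor chaperones 2 fell, against 5.44% of all tested genes, the HSP40 gene Dnaja1 (log2 fold -0.35, SE 0.08, adjusted p = 0.0353) and the HSP70-interacting protein gene St13 (-0.42, SE 0.10, 0.0373). With the length trend removed neither passed, at adjusted p = 0.363 and 0.238, and without the filter on low counts Dnaja1 did not pass (0.0574).

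LXR target genes differed in both directions, with 5 of 18 tested genes risen, Nr1h3 itself among them, and 1 fallen, against 5.54% and 5.44% of all tested genes. Mertk, a receptor for engulfment of dying cells, rose from 17.1 ± 1.80 to 44.2 ± 19.5 CPM (log2 fold 1.37, adjusted p = 0.0280). The phosphodiesterase gene Smpdl3a rose from 179.5 ± 3.49 to 351.2 ± 118 CPM (adjusted p = 0.0329) and the phospholipid transfer protein gene Pltp from 184.9 ± 5.71 to 267.6 ± 42.5 CPM (0.0382). The cholesterol exporter gene Abcg1 went the other way, from 187.4, 170.0 and 182.2 CPM to 113.0, 97.68 and 117.2 CPM. Its log2 fold was -0.72 (SE 0.10, adjusted p = 0.00915), and all ZM libraries were below Ctrl. The partner exporter gene Abca1 was not called, with Ctrl libraries at 128.5, 137.8 and 117.3 CPM and ZM libraries at 102.4, 154.5 and 152.8 CPM (adjusted p = 0.711), and was named after its values were seen. The median log2 fold of the LXR targets was 0.18. Mertk, like Cd14 among the vitamin D receptor targets, is also in the macrophage marker list, whose sum was higher in every ZM library.

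Of the PPAR targets 2 of 23 were called, both higher with ZM, a share near the 11.0% of all tested genes called. The lipoprotein lipase gene Lpl rose from 2295, 2384 and 2250 CPM to 3562, 3177 and 3211 CPM, a log2 fold of 0.52 with an SE of 0.09 (adjusted p = 0.0169), and Tgm2, which encodes a transglutaminase, from 88.6 ± 3.65 to 146.2 ± 38.9 CPM (0.0425). The list median of the log2 folds was -0.049.

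Of 22 glucocorticoid receptor targets 5 rose, against 5.54% of all tested genes, beside an Nr3c1 level that was not called. The phosphatase gene Dusp1 rose from 36.8 ± 1.22 to 63.2 ± 7.52 CPM (log2 fold 0.78, adjusted p = 0.00915), and Zfp36, which encodes an mRNA-destabilising protein, from 43.0 ± 2.33 to 90.03 ± 30.8 CPM (0.0279). Cebpd rose from 13.1 ± 1.34 to 38.2 ± 19.4 CPM (0.0283) and Sesn1 from 37.5 ± 1.86 to 64.5 ± 15.1 CPM (0.0286). The list median of the log2 folds was 0.365.

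Of 8 tested retinoic acid receptor targets 3 rose, against 5.54% of all tested genes. Dhrs3, a retinaldehyde reductase, rose from 37.7 ± 1.12 to 81.35 ± 36.1 CPM (log2 fold 1.11, adjusted p = 0.0440). Its log2 fold was 0.69 when ZM replicate 3 was left out. Dhrs3 is also the only called gene of 7 tested in the list of retinoid supply, against 11.0% of all tested genes. With limma-voom Dhrs3 did not pass (adjusted p = 0.0542). Plaur, the urokinase receptor gene, rose from 99.2 ± 5.19 to 155.3 ± 4.76 CPM (0.00772), and Tgm2 also belongs to the PPAR targets.

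Vitamin D receptor targets went both ways, with 2 of 8 tested genes risen and 2 fallen, against 5.54% and 5.44% of all tested genes. Cd14, a lipopolysaccharide co-receptor gene, rose from 69.6 ± 3.57 to 203.6 ± 83.6 CPM (log2 fold 1.55, adjusted p = 0.0153) and the sodium-calcium exchanger gene Slc8a1 from 31.5 ± 1.31 to 60.7 ± 14.3 CPM (0.0172). Hbegf fell from 2.835 ± 0.648 to 0.935 ± 0.324 CPM (0.0243) and the osteopontin gene Spp1 from 1012 ± 52.7 to 618.1 ± 125 CPM (0.0287). Cyp24a1, the vitamin D catabolic gene that most directly reports on the receptor, had 7 counts in all and was not tested.

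Clock genes beside the receptors also went both ways, with 2 of 19 risen and 2 fallen, beside the same 5.54% and 5.44% over all tested genes. Bhlhe40, a repressor of the clock, fell from 269.4 ± 6.34 to 151.2 ± 36.0 CPM (log2 fold -0.83, adjusted p = 0.0286), and Fbxl21, a ubiquitin ligase component, from 2.12 ± 0.247 to 0.944 ± 0.0259 CPM (0.0184). Per1 rose from 20.07 ± 1.10 to 31.5 ± 5.45 CPM (0.0308) and Nfil3 from 4.41 ± 0.491 to 8.59 ± 2.57 CPM (0.0400). Per1 is also counted among the risen glucocorticoid receptor targets. Arntl, which encodes BMAL1 and is a classical target of REV-ERB repression, had 10.88, 9.8 and 8.576 CPM across the Ctrl libraries and 12.05, 12.76 and 11.19 CPM across the ZM libraries. It was named after its values were seen, and it was not called (adjusted p = 0.167), with each ZM library above Ctrl.

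**Figure D5:**
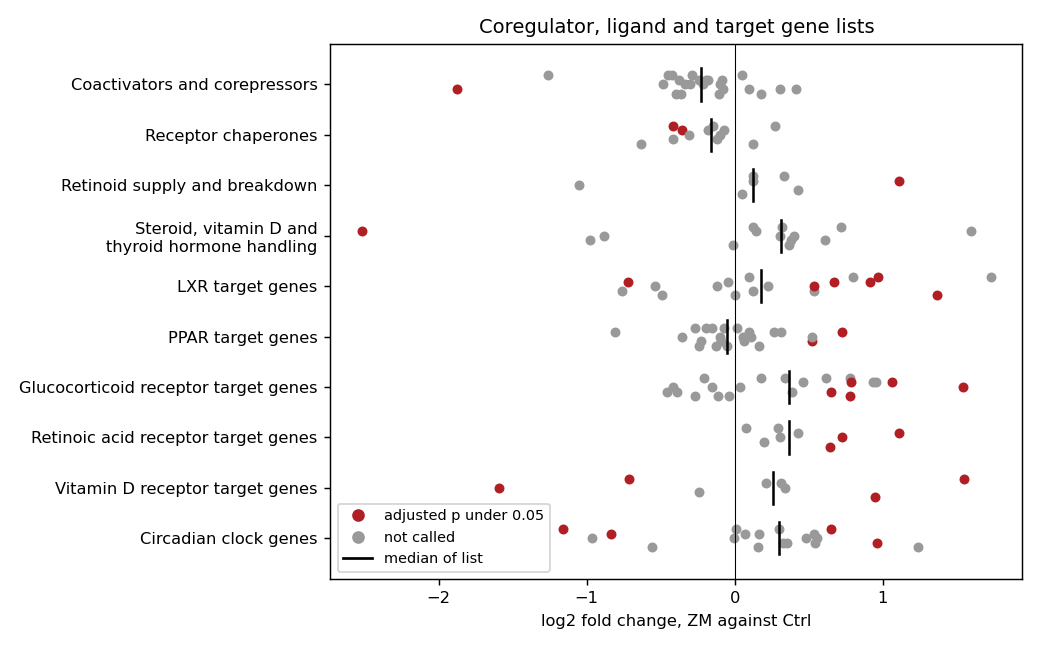
Log2 fold change of ZM against Ctrl for each tested gene of the coregulator, chaperone, ligand and target lists, with called genes in red and the median of each list as a black bar. The 2 largest called falls are those of Dio2 (-2.52) and Ppargc1b (-1.88), and the list medians lie between -0.226 and 0.365.

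Of the 25 called genes in these lists that are not receptors, Ppargc1b and Dio2 kept the call without any one library. The other 23 lost it without each Ctrl library (adjusted p from 0.0529 to 0.182), and 15 of the 25 lost it without ZM replicate 1. Across the 29 tested receptors, ZM libraries had the larger SD in 24, as did 81.7% of all tested genes. ZM replicate 3 was the ZM library farthest from the Ctrl mean for 17 receptors, against 6 each for the other two. The same count was not made over all tested genes, so it is not shown to be particular to the receptors.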

How the data were processed

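The values analysed are the counts per gene that the authors deposited for the 6 libraries, and gene lengths recovered from the deposited FPKM values to within 0.001 bases. The submitters' processing notes list featureCounts 2.0.3, HISAT2 2.2.1, DESeq2 and Subread and the build mm10, with no role or order. Strand setting and annotation are not given in the sources used here. In each library, among counts from 1 to 20, 72.7% to 76.4% were even, so dividing counts by 2 was tried as an alternative.

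ZM was compared with Ctrl across 15590 genes with edgeR 4.0.16 in R 4.3.3 (filterByExpr, TMM factors, quasi-likelihood F test, group as the only term) with Benjamini-Hochberg adjustment and a threshold of 0.05. The tested genes held 99.95% of counts, and 156 entries without a symbol held 0.0024%. CPM used TMM-scaled library sizes, and levels were compared between genes per kilobase. Intervals between replicates are SDs with n = 3. Positions and exon overlaps came from GENCODE M21 on GRCm38 and promoters from RefSeq on GRCm38.p6, which held entries for 37 of the 39 listed receptors. The test was tried on simulated data. It called 55.6% of the genes given a true log2 fold of 1 in size and 86.6% of those given 2. Of the genes left unchanged it called 0.053%. The simulation altered 200 genes, gave both groups the same dispersion per gene, and held no length trend and no outlying library. In the deposited data ZM had the larger SD in 81.7% of tested genes, so these shares may not hold for the real libraries.

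Named with values in each library are receptors that were called or averaged at least 10 CPM, plus Esr1, chosen after its values were seen; other tested receptors are given by means or ranges. Of each gene list up to 4 called genes with the smallest adjusted p are named, plus 3 coregulators, a further result of that rule being not reported here, and a few genes are marked as named after their values were seen. The receptors and lists were chosen with earlier results of these data known. Alternatives were DESeq2 1.42.0, limma-voom (limma 3.58.1), RLE factors, no factor, a minimum of 1 CPM in every library, testing without a filter, a replicate block, counts divided by 2 and leaving out each library. A correction for gene length (loess, span 0.5) was added after seeing the data.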

Additional observations from a re-analysis of the deposited data

How the results depend on the processing

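With 1 receptor called higher and 2 lower among 1711 called genes, RLE factors, no composition factor, a minimum of 1 CPM, limma-voom and counts divided by 2 named the same 3 receptors. Without the filter 2 were higher. DESeq2 called 3 higher (Esr1, Nr1h3 and Rxra) and 3295 genes in all, and the length correction, chosen after seeing the data, also called 3 higher. The cause of these differences was not tested. Leaving out 1 library gave 0 to 6 receptors higher, 0 to 4 lower and 148 to 5023 called genes, the highest counts without ZM replicate 2. With the replicate number as a block, 2 receptors were higher (Nr1h3 and Rxra) and 1 lower (Nr1d1), and Thra (adjusted p = 0.0539), Dnaja1 (0.0847) and St13 (0.0611) did not pass. Same-numbered libraries correlated at 0.022, 0.056 and 0.154 in their deviations from the group means, and Ctrl replicate 1 correlated better with ZM replicate 2 (0.179), so the numbers were not taken to pair the samples.

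Settings were compared gene by gene only for receptors called or averaging at least 10 CPM, called list genes, Ncor1 and Nrip1. Directions changed for 4 of these genes, none of them called. The log2 fold of Rara, 0.0034, was -0.0731 with no composition factor, -0.0153 with a minimum of 1 CPM, -0.0255 with limma-voom, -0.0203 with the replicate block and -0.1978 to 0.125 over the settings that leave out 1 library. Over those settings Rxrb ran from -0.145 to 0.0954 and Nr3c1 from -0.1182 to 0.0575. The length correction gave 0.0203 for Rxrb, 0.175 for Nr3c1 and 0.0502 for Nrip1, which was at -0.2384 without it. The cause was not tested. Apart from the length correction, the median log2 fold of all genes moved from 0.003 to -0.062 at most, with no composition factor. The length correction moved it to 0.075, above the log2 folds it gave for Rxrb and Nrip1. With 3 libraries a group and receptors under 1 CPM resting on few counts, a difference in such receptors may not be detectable at this depth.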
